A study of Mus musculus with 16 samples.

Results

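The genes described here are 41 mouse genes of fatty acid oxidation, comprising the enzymes of mitochondrial and peroxisomal beta-oxidation, the carnitine shuttle, ketone body metabolism and acyl-CoA hydrolysis, together with the nuclear receptor PPARalpha and genes it is known to activate. They were taken by name from a table of 54838 Ensembl genes in mouse liver, and all 41 were found and passed the filter on low counts that left 14865 genes for testing. RNA was sequenced from 16 pieces of liver of 8 mice, with a tumor and the surrounding peri-tumor liver from each mouse. Of these mice, 4 received a traditional Chinese medicine decoction (TCM) and 4 were controls, which gave 4 groups of 4 libraries, namely TCM tumor, TCM peri-tumor, control tumor and control peri-tumor. Every sample carried the genotype HrasG12V, an activated Ras oncogene, and the label 3 months. The labels do not say which promoter drives the transgene, what the decoction contained, what the controls were given, or whether 3 months is an age or a length of treatment. The treatment text names diethylnitrosamine (DEN), a liver carcinogen, beside the Ras transgenic mice, without saying whether these animals had it.

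Fatty acids reach the mitochondrial matrix as acyl-carnitines and are shortened there by repeated rounds of dehydrogenation, hydration, dehydrogenation and thiolysis, whose electrons pass to the respiratory chain. Peroxisomes shorten very long and branched chains, and the acetyl-CoA formed in liver mitochondria can be turned into ketone bodies. PPARalpha is the fatty acid sensing receptor of hepatocytes and activates many of these genes, most of all in fasting, by binding with RXR to a direct repeat of AGGTCA spaced by a single base.

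The libraries held 13947483 to 16194224 counted reads, of which the 41 genes took 0.606% to 1.25%. Levels are given as CPM, the counts of a gene scaled to a common library size after correction of each total by its TMM factor. The tumor markers Afp, Gpc3, Igf2, H19 and Spp1 summed to 1137 to 1694 CPM in TCM tumors and 27.7 to 72.5 CPM in TCM peri-tumor liver, and to 2316 to 3839 CPM in control tumors and 26.7 to 82.5 CPM in control peri-tumor liver, so that every tumor lay above every peri-tumor library as labelled. Hepatocyte markers were abundant in every library, with summed levels from 78804 CPM in control peri-tumor 2 to 184897 CPM in TCM tumor 3. Alb alone held 49889 CPM in control peri-tumor 2 and 137560 CPM in TCM tumor 3. Single hepatocyte markers moved in both directions between the tissues, as given below. The peri-tumor library of control mouse 4 stood apart from the other 3 of its group on the second principal component of all genes tested, at 3.85 against -57.0 to -38.6, while the TCM peri-tumor libraries lay at 23.7 to 38.2. The tumor of the same mouse lay at -4.49 on this component, against -28.7 to -19.2 in the other control tumors. Counts without that mouse are therefore given beside each comparison. In pieces of whole tissue, fewer cells of a type and less RNA per cell cannot be told apart.

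Between genes, levels were compared per length, as the deposited FPKM, fragments per kilobase of gene scaled to the size of the library. The FPKM imply a length of 553 bases for Fabp1 and 14149 bases for Acsl1, for instance. The order of the genes therefore also depends on the lengths used. Fabp1, the cytosolic fatty acid binding protein of hepatocytes, had the highest mean of the 41 over the 16 libraries, at 2987 FPKM. The mitochondrial thiolase Acaa2 followed at 414 FPKM, then the fatty acid transporter Slc27a2 at 208 FPKM and the peroxisomal thiolase Acaa1b at 182 FPKM. Acaa2 averaged 358 ± 10.3 FPKM in TCM tumors, 553 ± 26.7 FPKM in TCM peri-tumor liver, 303 ± 19.3 FPKM in control tumors and 444 ± 38.8 FPKM in control peri-tumor liver (SD, n = 4 each), and Slc27a2 lay below Acaa2 in all 4 groups. Acaa1b averaged 165 ± 39.9 FPKM in TCM tumors, 315 ± 63.8 FPKM in TCM peri-tumor liver, 128 ± 26.8 FPKM in control tumors and 120.2 ± 36.8 FPKM in control peri-tumor liver (SD, n = 4 each). Slc27a2 averaged 253 ± 29.1 FPKM in TCM peri-tumor liver, where its mean lay below that of Acaa1b and the 2 genes overlapped, and its mean was the higher one in the other 3 groups. The lowest of the 41 was the thioesterase Acot3, at a mean of 0.812 FPKM.

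Promoter sequences from RefSeq (GRCm38.p6) were searched for the PPAR and RXR element AGGTCANAGGTCA on both strands, from 250 bases before to 50 bases after each gene's start. Of the 41 genes, 35 had a window. None held the 13-base element without a mismatch, and 13 of the 26742 genes with a window did. With at most 2 mismatches, 5 of 35 (14.3%) held a match, against 4.42% of all genes with a window. Of the matches that lie wholly before the start, the 3 in genes called between TCM and control in either tissue are printed below, each as the 250 bases before the start on the gene's own strand, with the match in capitals; all 3 run on the strand opposite to the gene, so the capitals read as the reverse complement of the element. Fabp1 has 1 mismatch to the element, and Etfa and Acot4 have 2 each.
Fabp1 (chr6:71199629-71199878, plus strand): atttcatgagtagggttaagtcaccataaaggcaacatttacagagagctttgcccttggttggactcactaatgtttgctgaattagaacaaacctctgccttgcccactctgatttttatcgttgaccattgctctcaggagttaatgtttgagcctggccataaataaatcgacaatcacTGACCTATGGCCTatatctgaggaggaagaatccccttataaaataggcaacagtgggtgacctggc
Etfa (chr9:55512244-55512493, minus strand): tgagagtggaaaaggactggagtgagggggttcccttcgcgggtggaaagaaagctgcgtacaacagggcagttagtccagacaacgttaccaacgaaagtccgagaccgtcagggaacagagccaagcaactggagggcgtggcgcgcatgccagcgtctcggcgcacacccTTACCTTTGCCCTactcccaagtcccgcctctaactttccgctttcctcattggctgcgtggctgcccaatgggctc
Acot4 (chr12:84038129-84038378, plus strand): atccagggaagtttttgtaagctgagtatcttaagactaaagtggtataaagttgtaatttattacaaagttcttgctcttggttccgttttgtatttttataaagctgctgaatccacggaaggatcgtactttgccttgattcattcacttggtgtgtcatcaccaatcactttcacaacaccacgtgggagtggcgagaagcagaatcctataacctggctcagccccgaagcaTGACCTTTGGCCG
The Fabp1 match ends 55 bases before the start and the Etfa match 65 bases before it, while that of Acot4 ends at the last base before the start. Creb3l3, which was not called between treatments, holds a further match before its start and Slc25a20 one after it. Of the 19 genes with a window that were higher in TCM than in control peri-tumor liver, 2 held a match at this stringency, Etfa and Slc25a20. A match to these letters is a description of the sequence and not a measured binding site.

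In peri-tumor liver the decoction group had more RNA of most of these genes. Of the 41, 25 were higher in TCM than in control peri-tumor liver and 2 were lower by edgeR's quasi-likelihood test with Benjamini-Hochberg adjustment over all 14865 genes, called at an adjusted p under 0.05. Among all genes tested 6.71% were called higher and 7.35% lower. The median log2 fold change of the 41 was 0.52, against -0.0042 over all genes. Summed over the 41, the level was 13283, 12483, 11549 and 11839.9 CPM in TCM peri-tumor liver and 8028, 7163, 8051 and 8926 CPM in control peri-tumor liver, and the lowest TCM library lay above the highest control library. The 25 comprised 2 of 5 regulators and secreted proteins, 6 of 8 genes of uptake and the carnitine shuttle, 11 of 15 of mitochondrial beta-oxidation, 5 of 6 peroxisomal genes, 1 of 2 ketone body genes and none of 5 thioesterases (none at an unadjusted p under 0.05 either), and both genes that fell were thioesterases. In 23 of the 41 every TCM library lay above every control library, and in none did every TCM library lie below. How many of all genes tested separate in this way was not counted, so these numbers have no general share beside them.

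Of these 27 calls, 18 held without any 1 of the 8 libraries compared. The call was lost for Acads without any 1 of TCM peri-tumor 1, 2, 3 and 4 and control peri-tumor 1, 2 and 3 (adjusted p 0.0525 to 0.106), Cpt1a without any 1 of TCM peri-tumor 2 and 3 and control peri-tumor 1, 2 and 3 (adjusted p 0.062 to 0.0857), Ech1 without any 1 of TCM peri-tumor 1, 2 and 3 and control peri-tumor 1 and 2 (adjusted p 0.0567 to 0.0899), Eci1 without any 1 of TCM peri-tumor 1 and 3 and control peri-tumor 2 (adjusted p 0.0619 to 0.0822), Acadm without any 1 of TCM peri-tumor 1 and control peri-tumor 2 (adjusted p 0.0535 to 0.0566), Acaa2 without control peri-tumor 2 (adjusted p 0.0545), Pdk4 without TCM peri-tumor 1 (adjusted p 0.05001), Acot4 without any 1 of TCM peri-tumor 1, 2 and 3 and control peri-tumor 1 and 2 (adjusted p 0.0535 to 0.126) and Acot3 without any 1 of TCM peri-tumor 3 and control peri-tumor 2 (adjusted p 0.0545 to 0.0934). Without both libraries of control mouse 4, 27 of the 41 were higher and 2 lower. Calls over all genes, 2091 with all libraries, also rose without this mouse, as given in the last section. The 2 added rises were Fabp1, at 1.22 on the log2 scale (adjusted p = 0.00302), and the ketone body enzyme Bdh1, at 1.08 (adjusted p = 0.00136).

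**Figure D1:**
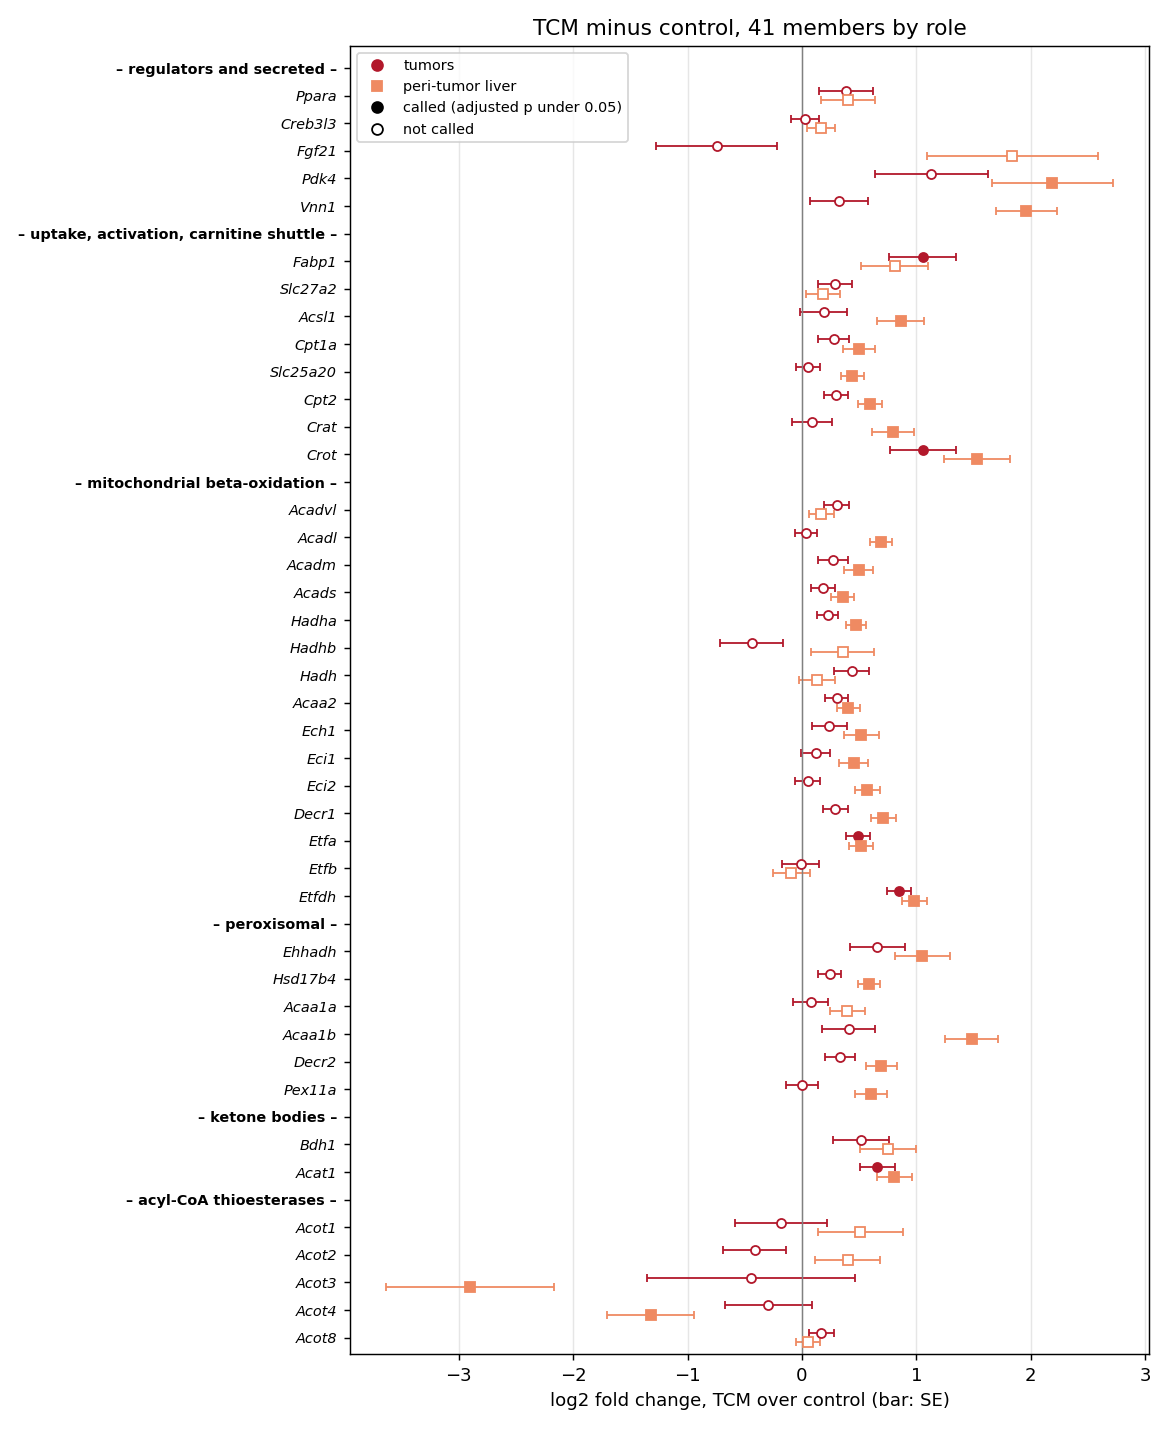
Log2 fold change of TCM over control (x axis, bars are SE) for the 41 genes grouped by role (y axis), in tumors (circles) and peri-tumor liver (squares), with filled marks for an adjusted p under 0.05. In peri-tumor liver 25 genes lie to the right with filled squares and Acot3 and Acot4 to the left, while 5 circles are filled in tumors.

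In tumors fewer of the 41 genes differed between the treatments. Higher in TCM than in control tumors were 5, namely Etfdh, Etfa, Acat1, Crot and Fabp1, and none was lower; of all genes tested 7.28% were called, 4.55% higher and 2.72% lower. At an unadjusted p under 0.05 edgeR had 16 higher and 0 lower, and DESeq2 with adjustment called 11 higher and 0 lower. The shares above are of adjusted edgeR calls and do not stand beside these counts. DESeq2 also called more of all genes, as given in the last section. At an unadjusted p no share of all genes was counted. Of the 5 calls, that of Etfdh held without any 1 of the 8 libraries. The median log2 fold change was 0.24, against 0.0020 over all genes. The summed level was 8809.98, 8357, 9192 and 8188 CPM in TCM tumors and 7118, 5855, 6359 and 5903 CPM in control tumors, so that all 4 TCM tumors lay above all 4 control tumors. The call was lost for Fabp1 without any 1 of TCM tumor 1 and 3 and control tumor 2, 3 and 4 (adjusted p 0.0664 to 0.111), Crot without any 1 of TCM tumor 1, 2 and 3 and control tumor 1, 2 and 3 (adjusted p 0.0655 to 0.107), Acat1 without any 1 of TCM tumor 3 and control tumor 2 (adjusted p 0.0656 to 0.0665) and Etfa without TCM tumor 3 (adjusted p 0.0549). Without control mouse 4, 7 genes were higher, the added ones being Cpt2 at 0.41 on the log2 scale (adjusted p = 0.018) and Hadh at 0.41 (adjusted p = 0.0299). Calls over all genes, 1082 with all libraries, also rose under this setting, as given in the last section.

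Between tumor and peri-tumor liver most of the called genes were lower in the tumor. In TCM mice 26 of the 41 were lower and 3 higher in tumors, where 15.6% of all genes were called lower and 17.3% higher. In control mice 18 were lower and 7 higher, where 21.2% of all genes were called lower and 22% higher. The median log2 fold change was -0.51 in TCM mice and -0.32 in control mice, against 0.0043 in TCM mice and 0.0010 in control mice over all genes. Summed over the 41, the level was 8188 to 9192 CPM in TCM tumors and 11549 to 13283 CPM in TCM peri-tumor liver, and 5855 to 7118 CPM in control tumors and 7163 to 8926 CPM in control peri-tumor liver. In 28 of the 41 genes every TCM tumor lay below every TCM peri-tumor library and in 2 above, and in control mice these numbers were 11 and 7. Such separation was not counted over all genes tested, so whether these numbers exceed the general share is not known. These 2 tissue comparisons use different animals, but each shares a group of libraries with each of the treatment comparisons, so the values are given side by side.

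Of the 29 calls in TCM mice, 24 held without any 1 of the 8 libraries. The call was lost for Crat without any 1 of TCM tumor 1, 2 and 4 and TCM peri-tumor 2, 3 and 4 (adjusted p 0.0504 to 0.134), Cpt1a without any 1 of TCM tumor 2, 3 and 4 and TCM peri-tumor 1 and 4 (adjusted p 0.0524 to 0.0847), Acadm without any 1 of TCM tumor 1 and 4 and TCM peri-tumor 1 and 2 (adjusted p 0.0639 to 0.103), Acat1 without any 1 of TCM tumor 1 and 4 and TCM peri-tumor 1, 2 and 3 (adjusted p 0.0853 to 0.15) and Acot8 without any 1 of TCM tumor 1, 2 and 4 and TCM peri-tumor 1, 2 and 4 (adjusted p 0.0573 to 0.0988). Of the 25 calls in control mice 20 held. The call was lost for Creb3l3 without any 1 of control tumor 2 and 4 and control peri-tumor 3 and 4 (adjusted p 0.0837 to 0.133), Ech1 without any 1 of control tumor 2 and 4 and control peri-tumor 1, 2 and 3 (adjusted p 0.0544 to 0.133), Decr1 without any 1 of control tumor 2 and 4 and control peri-tumor 1, 2 and 3 (adjusted p 0.0598 to 0.0841), Acaa1a without any 1 of control peri-tumor 1 and 3 (adjusted p 0.0553 to 0.0575) and Bdh1 without any 1 of control tumor 1, 2 and 3 and control peri-tumor 1, 2 and 3 (adjusted p 0.079 to 0.131). Since tumor and peri-tumor liver of a pair come from the same animal, the tissue and interaction fits were repeated with a replicate block that has a level for each of the 8 mice. In TCM mice the block added a fall of Hadh (adjusted p = 0.0424) and lost that of Acot8 (adjusted p = 0.0701). In control mice it added falls of Crot (adjusted p = 0.00109), Pex11a (adjusted p = 0.0103), Ehhadh (adjusted p = 0.0213) and Acads (adjusted p = 0.0367) and a rise of Pdk4 (adjusted p = 0.0132). Without control mouse 4, 19 of the 41 were lower and 7 higher in control tumors.

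**Figure D2:**
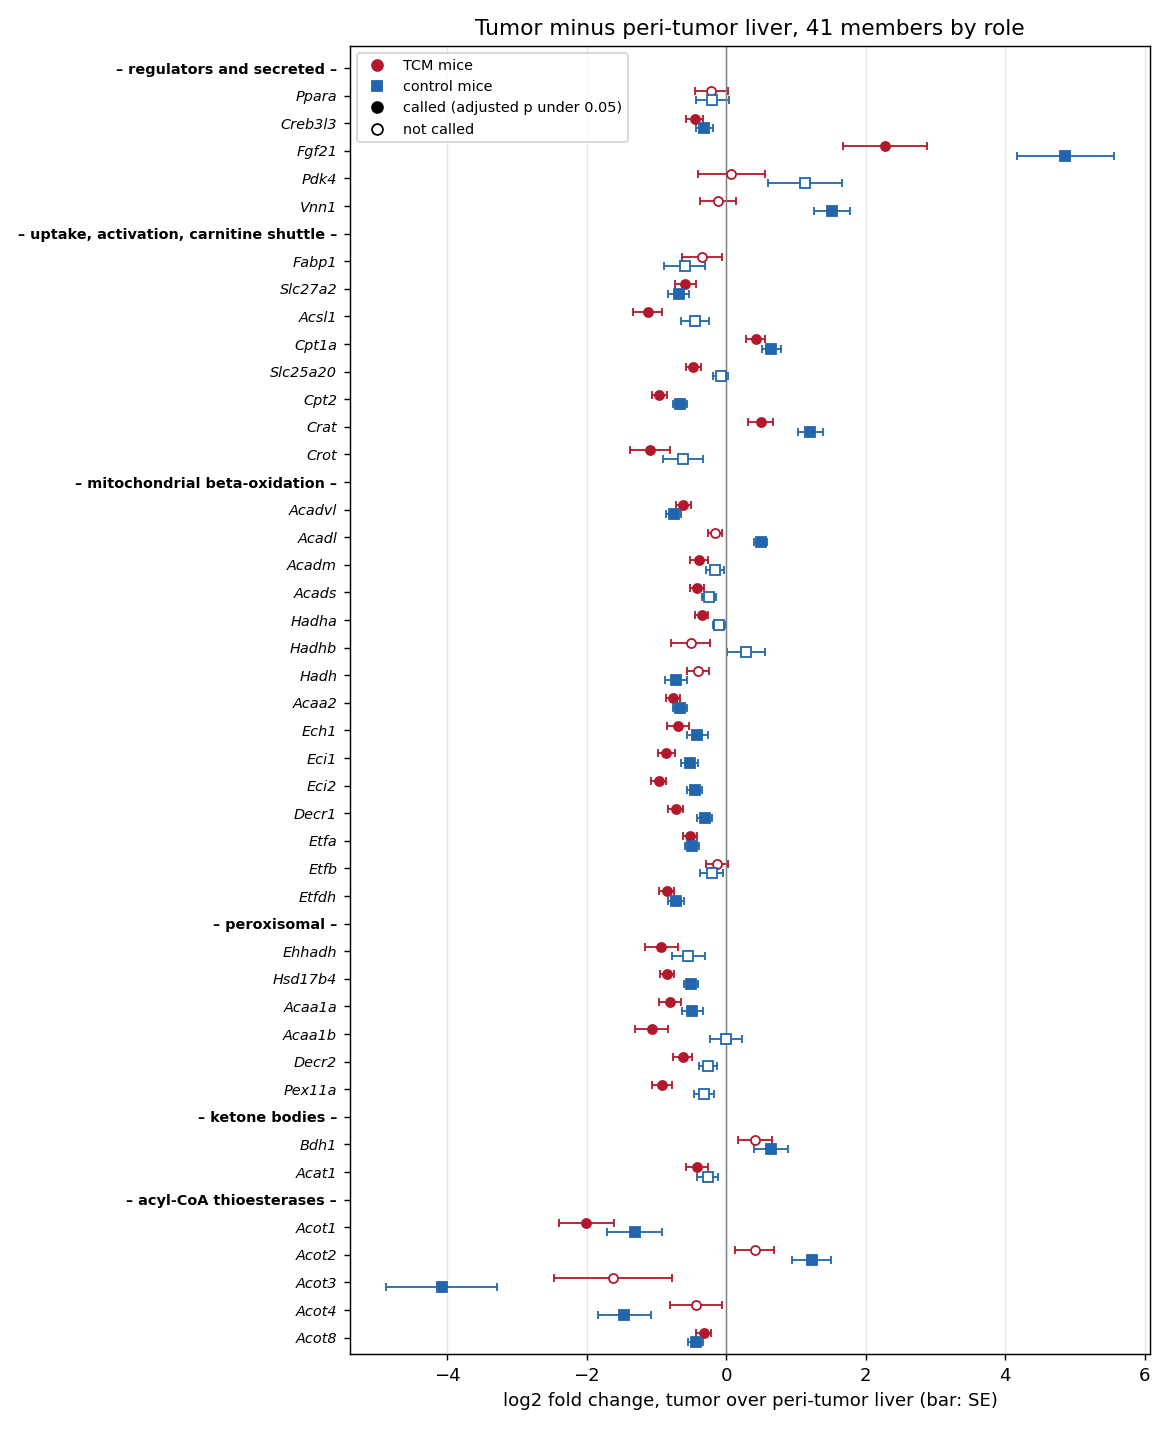
Log2 fold change of tumor over peri-tumor liver (x axis, bars are SE) for the 41 genes grouped by role (y axis), in TCM mice (circles) and control mice (squares), with filled marks for an adjusted p under 0.05. Most filled marks lie left of 0; Fgf21, Cpt1a and Crat lie to the right in both, and Vnn1, Acadl, Bdh1 and Acot2 are filled on the right in control mice.

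The difference between the tumor effect in TCM mice and that in control mice was tested as an interaction. It was called for 2 of the 41, both with a more negative value in TCM mice, against 0.404% of all genes called in that direction and 0.706% in the other. These were Vnn1, a pantetheinase anchored to the cell surface, at -1.64 ± 0.36 on the log2 scale (SE; edgeR adjusted p = 0.0424), and Acadl, the long-chain acyl-CoA dehydrogenase, at -0.65 ± 0.14 (SE; edgeR adjusted p = 0.034). With the mouse as a block both missed the threshold, at adjusted p = 0.0836 for Vnn1 and 0.0629 for Acadl, and Fgf21 (adjusted p = 0.0174) and Acaa1b (adjusted p = 0.0281) passed it. Without 1 library the call for Vnn1 was lost in 12 of 16 cases (adjusted p 0.0532 to 0.0903) and that for Acadl in 10 of 16 (adjusted p 0.06 to 0.0786). Without control mouse 4 both were called, with Fgf21 at -2.56 on the log2 scale (adjusted p = 0.0481) and Acaa1b at -0.97 (adjusted p = 0.036). No member was called with a more positive value, by edgeR, by DESeq2 or at an unadjusted p under 0.05, where 11 had a more negative value. The share of all genes at that unadjusted threshold was not counted, so whether 11 exceeds it is not known. The median interaction value of the 41 was -0.299, against 0.0305 over all genes.

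**Figure D3:**
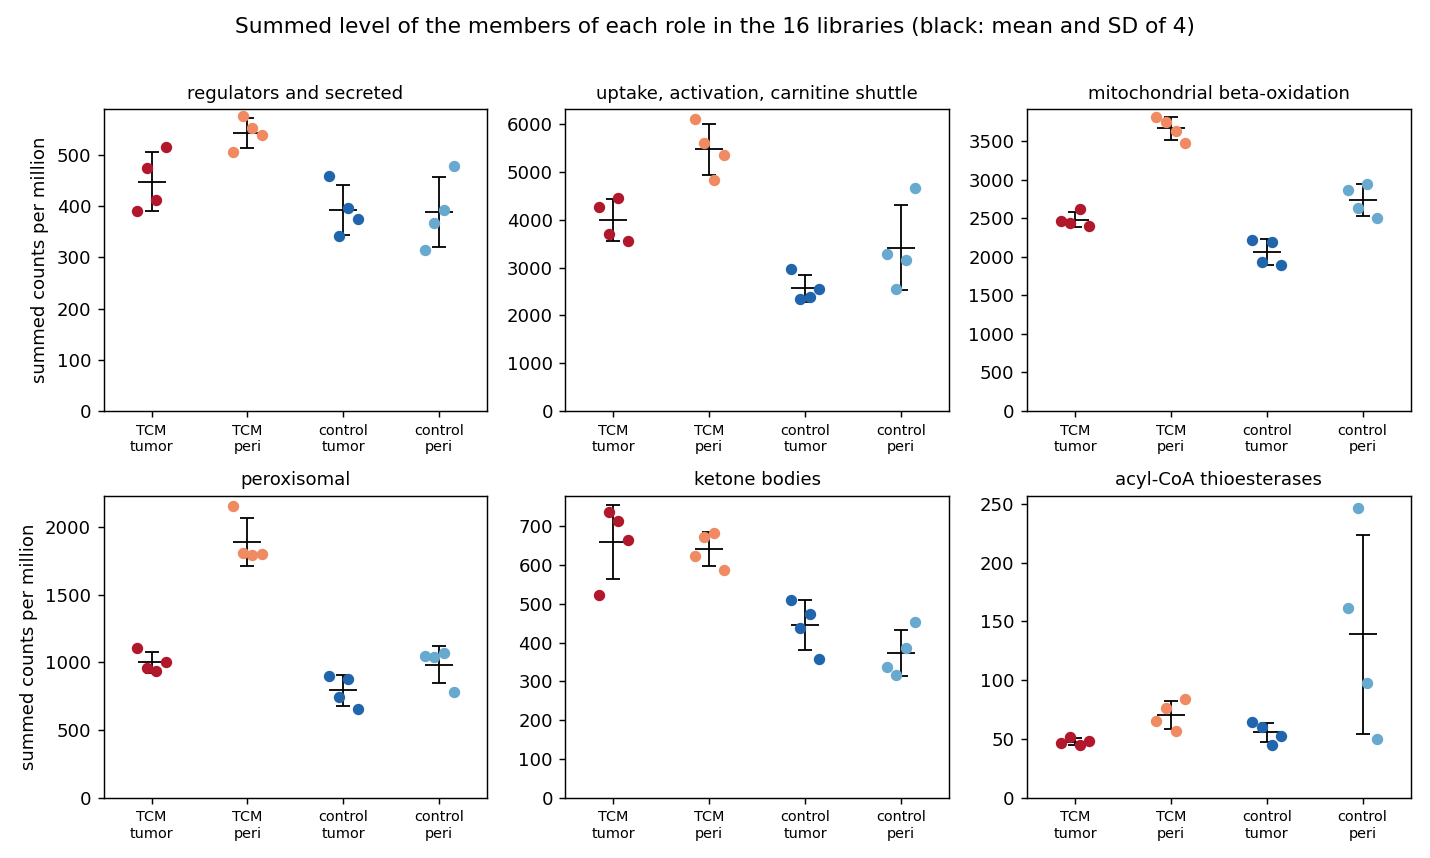
Summed level in CPM (y axis, from 0) of the genes of each role in the 4 groups (x axis), 1 point per library, with the mean and SD of 4 in black. In the mitochondrial and peroxisomal panels the 4 TCM peri-tumor libraries lie above all others, at 3480 to 3816 CPM and 1790 to 2153 CPM.

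PPARalpha itself was not called in any comparison. Ppara had 92.7, 159.9, 127 and 154 CPM in TCM tumors and 109.4, 168, 163 and 177 CPM in TCM peri-tumor liver. Control tumors held 103.1, 83.7, 94.4 and 127 CPM, and control peri-tumor liver held 70.3, 140.3, 102.7 and 155 CPM. The groups overlapped in every comparison, and libraries of 1 group ranged widely, control peri-tumor 1 being the lowest of the 16. TCM minus control amounted to a log2 fold change of 0.39 ± 0.23 (SE; edgeR adjusted p = 0.328) in tumors and 0.399 ± 0.23 (SE; edgeR adjusted p = 0.275) in peri-tumor liver. Creb3l3, a liver transcription factor that acts with PPARalpha on Fgf21, averaged 197 ± 13.8 CPM in TCM tumors and 270.1 ± 17 CPM in TCM peri-tumor liver, and 194 ± 24.6 CPM in control tumors and 241 ± 37 CPM in control peri-tumor liver (mean ± SD, n = 4 each). It fell in tumors of TCM mice, at a log2 fold change of -0.45 ± 0.12 (SE; edgeR adjusted p = 0.00881), and of control mice, at -0.32 ± 0.12 (SE; edgeR adjusted p = 0.0445), the second of which depended on single libraries as given above.

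Fgf21, a hormone that the liver secretes in fasting and stress, was higher in tumors. Fgf21 had 11.8, 3.35, 10.8 and 6.71 CPM in TCM tumors and 1.59, 0.675, 2.57 and 1.92 CPM in TCM peri-tumor liver. Control tumors held 23, 13.2, 16.3 and 2.51 CPM, and control peri-tumor liver held 0.573, 0.363, 0.827 and 0.0698 CPM. Every tumor library lay above every peri-tumor library of the same treatment, and control tumor 4 was the lowest of the control tumors. The tumor effect was a log2 fold change of 2.28 ± 0.598 (SE; edgeR adjusted p = 0.00797) in TCM mice and 4.86 ± 0.698 (SE; edgeR adjusted p = 4.67e-05) in control mice. TCM peri-tumor liver did not pass the test against control peri-tumor liver, with a log2 fold change of 1.84 ± 0.75 (SE; edgeR adjusted p = 0.109), where the 2 groups overlapped.

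Among the genes grouped as regulators and secreted proteins, Pdk4 and Vnn1 were those called higher in TCM than in control peri-tumor liver. Pdk4, a kinase that shuts off pyruvate dehydrogenase when fat is burned, had 15.2, 3.17, 11 and 6.4 CPM in TCM peri-tumor liver and 0.509, 3.21, 1.78 and 2.3 CPM in control peri-tumor liver. Libraries of both groups were spread several fold and overlapped, TCM peri-tumor 2 lying just under control peri-tumor 2. The log2 fold change was 2.19 ± 0.53 (SE; edgeR adjusted p = 0.0142). In tumors Pdk4 had 17.4, 4.59, 9.52 and 5.89 CPM in TCM tumors and 4.18, 4.16, 4.82 and 3.94 CPM in control tumors. These groups overlapped and did not pass the test, at 1.13 ± 0.495 on the log2 scale (SE; edgeR adjusted p = 0.172).

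Vnn1 had 90.2, 105.9, 64.6 and 139.6 CPM in TCM tumors and 121, 111, 120.2 and 81.3 CPM in TCM peri-tumor liver. Control tumors held 110.4, 77.4, 73.1 and 58.6 CPM, and control peri-tumor liver held 27.2, 16.9, 33 and 34.5 CPM. The 4 control peri-tumor libraries were the lowest of the 16, and the other groups overlapped one another. Vnn1 was higher in TCM than in control peri-tumor liver, with a log2 fold change of 1.96 ± 0.26 (SE; edgeR adjusted p = 0.000564), and higher in tumors than in peri-tumor liver of control mice, at 1.52 ± 0.26 (SE; edgeR adjusted p = 0.000223). In TCM mice the value for tumor over peri-tumor liver was -0.12 ± 0.25 on the log2 scale (SE; edgeR adjusted p = 0.76), and for TCM over control tumors it was 0.33 ± 0.25 (SE; edgeR adjusted p = 0.455).

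**Figure D4:**
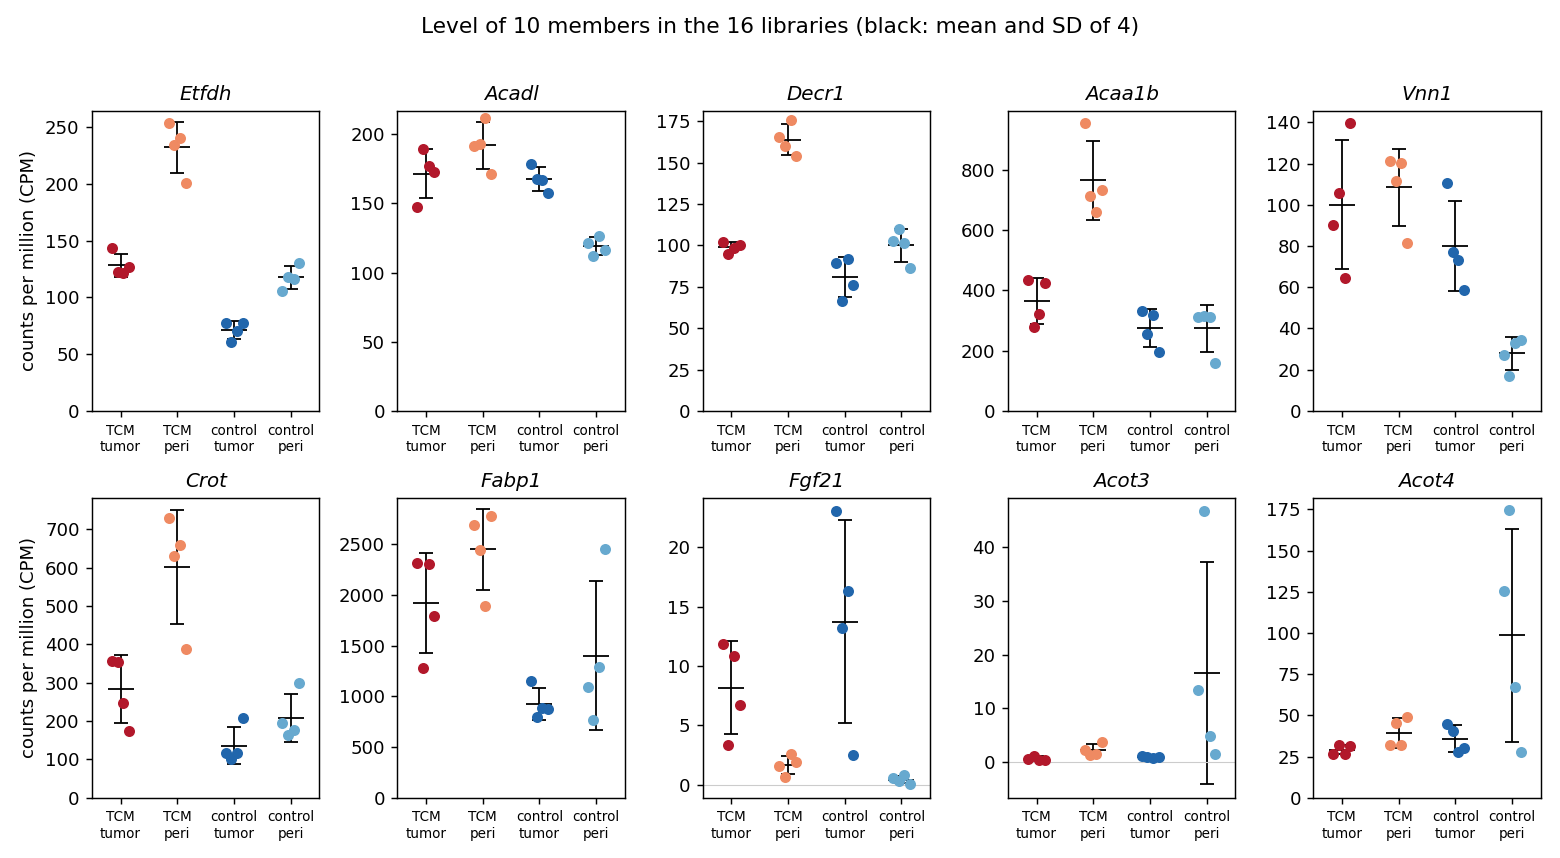
Level in CPM (y axis, a scale for each panel) of 10 genes in the 4 groups (x axis), 1 point per library, with the mean and SD of 4 in black. For Etfdh, Acadl, Decr1, Acaa1b and Vnn1 the 4 TCM peri-tumor libraries lie above the 4 control peri-tumor libraries, and Acot3 and Acot4 are highest in control peri-tumor 1 and 2.

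Of the 8 genes of uptake, activation and the carnitine shuttle, 6 were higher in TCM than in control peri-tumor liver and 2, Fabp1 and Crot, in TCM than in control tumors. Fabp1 had 2318, 1281, 2300.1 and 1792 CPM in TCM tumors and 2688, 2442, 1891 and 2782 CPM in TCM peri-tumor liver. Control tumors held 1151, 796, 885 and 872 CPM, and control peri-tumor liver held 1089, 766, 1287 and 2452 CPM. All 4 TCM tumors lay above all 4 control tumors, while control peri-tumor 4 reached into the range of TCM peri-tumor liver and the other 3 of its group lay below that range. Relative to control, TCM gave a log2 fold change of 1.05 ± 0.29 (SE; edgeR adjusted p = 0.0404) in tumors and 0.81 ± 0.29 (SE; edgeR adjusted p = 0.0745) in peri-tumor liver, of which the first is called. The call in tumors was lost without TCM tumor 1 or 3 or control tumor 2, 3 or 4, with adjusted p up to 0.111. It was also lost when a library of the other tissue left the shared fit, TCM peri-tumor 1, 2 or 4 or control peri-tumor 3 (adjusted p 0.0516 to 0.0535). In peri-tumor liver a call was gained without control peri-tumor 4, at 1.23 on the log2 scale (adjusted p = 0.00257).

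Crot, which links medium-chain acyl groups made in peroxisomes to carnitine, was among the larger rises in both tissues. Crot had 357, 354, 246 and 174 CPM in TCM tumors and 729, 629, 658 and 388 CPM in TCM peri-tumor liver. Control tumors held 117, 100.03, 118 and 209 CPM, and control peri-tumor liver held 195, 163, 177 and 299.8 CPM. Every TCM peri-tumor library lay above every control one, and in tumors TCM tumor 4 lay below control tumor 4. TCM over control came to a log2 fold change of 1.53 ± 0.29 (SE; edgeR adjusted p = 0.00414) in peri-tumor liver and 1.06 ± 0.29 (SE; edgeR adjusted p = 0.0364) in tumors. The call in tumors was lost without TCM tumor 1, 2 or 3 or control tumor 1, 2 or 3, with adjusted p up to 0.107. Crot fell in tumors of TCM mice, at -1.09 ± 0.29 on the log2 scale (SE; edgeR adjusted p = 0.00807), and in control mice the value was -0.62 ± 0.28 (SE; edgeR adjusted p = 0.092).

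Cpt1a and Cpt2, the outer and inner carnitine palmitoyltransferases of the mitochondrion, differed in direction between tumor and peri-tumor liver. Cpt1a, which catalyses the controlled step of entry, had 468, 669, 593 and 612 CPM in TCM tumors and 378, 468, 465 and 434 CPM in TCM peri-tumor liver. Control tumors held 520.3, 437, 431 and 546 CPM, and control peri-tumor liver held 301, 265, 306 and 364 CPM. Control peri-tumor libraries were the lowest of the 16 and did not overlap with control tumors. Cpt1a was higher in tumors, with a log2 fold change of 0.42 ± 0.14 (SE; edgeR adjusted p = 0.0257) in TCM mice, where TCM tumor 1 overlapped with peri-tumor liver and the call was lost without TCM tumor 2, 3 or 4 or TCM peri-tumor 1 or 4, with adjusted p up to 0.0847, and of 0.65 ± 0.14 (SE; edgeR adjusted p = 0.0013) in control mice.

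Cpt2 had 65, 63.9, 59 and 63.4 CPM in TCM tumors and 132, 116, 130.5 and 108.8 CPM in TCM peri-tumor liver. Control tumors held 51, 43.3, 51.4 and 58.9 CPM, and control peri-tumor liver held 83.5, 88.6, 76.3 and 74.4 CPM. In both treatments all tumors lay below all peri-tumor libraries. Relative to peri-tumor liver, tumors gave a log2 fold change of -0.96 ± 0.103 (SE; edgeR adjusted p = 7.22e-06) in TCM mice and -0.66 ± 0.103 (SE; edgeR adjusted p = 9.94e-05) in control mice, and TCM exceeded control peri-tumor liver by 0.596 ± 0.102 (SE; edgeR adjusted p = 0.00232). Slc25a20, the carrier that exchanges acyl-carnitine for carnitine across the inner membrane, was higher in TCM than in control peri-tumor liver, at 0.44 ± 0.103 on the log2 scale (SE; edgeR adjusted p = 0.0122), with no overlap of the groups. It fell in tumors of TCM mice, at -0.47 ± 0.103 on the log2 scale (SE; edgeR adjusted p = 0.00244).

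Crat, the carnitine acetyltransferase of mitochondria and peroxisomes, had 42, 39.4, 33.2 and 33.9 CPM in TCM tumors and 32.5, 19.5, 25.8 and 27.6 CPM in TCM peri-tumor liver. Control tumors held 36.4, 33.4, 32.4 and 37.7 CPM, and control peri-tumor liver held 14.1, 20.8, 10.5 and 15.3 CPM. Tumors lay above peri-tumor liver in both treatments without overlap, and TCM peri-tumor 2 lay below control peri-tumor 2. The log2 fold change was 0.49 ± 0.18 (SE; edgeR adjusted p = 0.0427) in TCM mice and 1.21 ± 0.18 (SE; edgeR adjusted p = 6.96e-05) in control mice for tumor over peri-tumor liver, and 0.797 ± 0.18 (SE; edgeR adjusted p = 0.0103) for TCM over control peri-tumor liver. The call in TCM mice was lost without TCM tumor 1, 2 or 4 or TCM peri-tumor 2, 3 or 4, with adjusted p up to 0.134.

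Acsl1, the main acyl-CoA synthetase of liver, averaged 599 ± 168 CPM in TCM peri-tumor liver and 329 ± 47.8 CPM in control peri-tumor liver (SD, n = 4 each) without overlap, and rose by a log2 fold change of 0.86 ± 0.21 (SE; edgeR adjusted p = 0.014). It fell in tumors of TCM mice, at -1.12 ± 0.21 on the log2 scale (SE; edgeR adjusted p = 0.000692), and the value in control mice was -0.45 ± 0.21 (SE; edgeR adjusted p = 0.0916). Slc27a2, a very long-chain acyl-CoA synthetase and transporter, fell in tumors of both, at -0.58 ± 0.15 on the log2 scale (SE; edgeR adjusted p = 0.00657) in TCM mice and -0.68 ± 0.15 (SE; edgeR adjusted p = 0.00161) in control mice, and was not called between treatments.

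In mitochondrial beta-oxidation 11 of 15 genes were higher in TCM than in control peri-tumor liver, with log2 fold changes from 0.35 to 0.98. The call with the smallest p of the 41 was that of Etfdh, the electron transfer flavoprotein dehydrogenase that passes electrons from beta-oxidation to ubiquinone. Etfdh had 143, 122, 122 and 127 CPM in TCM tumors and 254, 235, 240.2 and 201 CPM in TCM peri-tumor liver. Control tumors held 77.2, 60.4, 70.4 and 77.6 CPM, and control peri-tumor liver held 105.97, 118, 116 and 131 CPM. All TCM libraries lay above all control libraries in both tissues, and all tumors lay below all peri-tumor libraries of the same treatment. TCM minus control amounted to a log2 fold change of 0.98 ± 0.11 (SE; edgeR adjusted p = 0.000186) in peri-tumor liver and 0.85 ± 0.11 (SE; edgeR adjusted p = 0.000967) in tumors, and that of tumor over peri-tumor liver was -0.85 ± 0.11 (SE; edgeR adjusted p = 2.94e-05) in TCM mice and -0.72 ± 0.11 (SE; edgeR adjusted p = 7.13e-05) in control mice.

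Etfa, a subunit of the flavoprotein that hands these electrons to Etfdh, had 222, 204, 234 and 179.5 CPM in TCM tumors and 311, 311, 306 and 277 CPM in TCM peri-tumor liver. Control tumors held 154, 139.99, 149 and 156 CPM, and control peri-tumor liver held 220.4, 216, 228 and 177 CPM. The groups did not overlap in any of the 4 comparisons. Etfa was higher with TCM, at 0.52 ± 0.105 on the log2 scale (SE; edgeR adjusted p = 0.00588) in peri-tumor liver and 0.49 ± 0.11 (SE; edgeR adjusted p = 0.0146) in tumors, and the second call was lost without TCM tumor 3, at an adjusted p of 0.0549. The partner subunit Etfb was not called in any comparison, with log2 fold changes from -0.21 to 0.08. Of its transcript's 50-base words 67.3% also occur in Gm45233, to which 19 reads were assigned in all, and how shared reads were assigned is not stated in the sources used here.

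The acyl-CoA dehydrogenases differ in the chain length they take. Acadl, for long chains, had 147, 189, 177 and 173 CPM in TCM tumors and 191, 193, 212 and 171 CPM in TCM peri-tumor liver. Control tumors held 179, 167, 167 and 158 CPM, and control peri-tumor liver held 122, 112, 127 and 116 CPM. The 4 control peri-tumor libraries were the lowest of the 16, and the other 3 groups overlapped. Acadl rose in TCM peri-tumor liver by 0.69 ± 0.097 on the log2 scale (SE; edgeR adjusted p = 0.000796) and in control tumors, against control peri-tumor liver, by 0.49 ± 0.097 (SE; edgeR adjusted p = 0.000697). In TCM mice tumor over peri-tumor liver was -0.16 ± 0.096 on the log2 scale (SE; edgeR adjusted p = 0.221).

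Acadvl, for very long chains, had 210.1, 170.2, 209.9 and 211 CPM in TCM tumors and 339.5, 315, 259.9 and 314 CPM in TCM peri-tumor liver. Control tumors held 174, 156, 172 and 146 CPM, and control peri-tumor liver held 291, 249.7, 284 and 268 CPM. Every tumor lay below every peri-tumor library of its treatment, and TCM tumor 2 was the lowest of its group. Tumor over peri-tumor liver came to a log2 fold change of -0.62 ± 0.11 (SE; edgeR adjusted p = 0.000493) in TCM mice and -0.75 ± 0.11 (SE; edgeR adjusted p = 5.18e-05) in control mice. Between treatments Acadvl was not called, at 0.17 ± 0.11 on the log2 scale (SE; edgeR adjusted p = 0.324) in peri-tumor liver and 0.305 ± 0.11 (SE; edgeR adjusted p = 0.0975) in tumors. Other counted genes overlap 42.9% of its exon bases, and Dvl2, on the opposite strand, overlaps the most of them. Since the strand setting of the counting is not stated here, reads of Acadvl and of overlapping genes may not be told apart. Acadm and Acads, for medium and short chains, were higher in TCM than in control peri-tumor liver by log2 fold changes of 0.49 for Acadm and 0.35 for Acads. Both were lower in tumors of TCM mice, at log2 fold changes of -0.39 for Acadm and -0.42 for Acads, with the dependence on single libraries given above.

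Decr1, an auxiliary reductase for unsaturated chains, had 102.2, 95, 98.6 and 100.5 CPM in TCM tumors and 166, 159.99, 176 and 154 CPM in TCM peri-tumor liver. Control tumors held 89.4, 66.6, 91.7 and 75.9 CPM, and control peri-tumor liver held 102.7, 109.99, 101.2 and 86.3 CPM. TCM peri-tumor libraries were the highest of the 16, and all TCM tumors lay above all control tumors. Relative to control, TCM gave a log2 fold change of 0.71 ± 0.11 (SE; edgeR adjusted p = 0.00118) in peri-tumor liver and 0.29 ± 0.11 (SE; edgeR adjusted p = 0.105) in tumors. Decr1 fell in tumors of TCM mice, at -0.73 ± 0.11 on the log2 scale (SE; edgeR adjusted p = 0.000109), and of control mice, at -0.31 ± 0.11 (SE; edgeR adjusted p = 0.0297). The isomerase Eci2 had 161, 149, 139 and 132 CPM in TCM peri-tumor liver and 95.5, 91.2, 106.05 and 98.8 CPM in control peri-tumor liver, and in tumors 77.5, 89.96, 65.6 and 63.6 CPM in TCM tumors and 76.8, 68.8, 70.6 and 70.3 CPM in control tumors. Neither treatment's tumors overlapped with its peri-tumor liver. Eci2 rose in TCM peri-tumor liver by 0.57 ± 0.11 on the log2 scale (SE; edgeR adjusted p = 0.00455) and fell in tumors of TCM mice, at -0.97 ± 0.11 (SE; edgeR adjusted p = 1.19e-05), and of control mice, at -0.45 ± 0.11 (SE; edgeR adjusted p = 0.00361).

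The thiolase Acaa2, which releases acetyl-CoA from medium chains, had 524, 528, 559 and 515 CPM in TCM tumors and 896, 908, 951 and 852 CPM in TCM peri-tumor liver. Control tumors held 454, 404, 453 and 412 CPM, and control peri-tumor liver held 721, 608, 749.7 and 646 CPM. The groups did not overlap in any of the 4 comparisons. It fell in tumors, at -0.76 ± 0.0996 on the log2 scale (SE; edgeR adjusted p = 3.83e-05) in TCM mice and -0.66 ± 0.0995 (SE; edgeR adjusted p = 7.33e-05) in control mice, and rose in TCM peri-tumor liver by 0.405 ± 0.099 (SE; edgeR adjusted p = 0.0155). That rise missed the threshold without control peri-tumor 2, at an adjusted p of 0.0545. In tumors its value for TCM over control was 0.302 ± 0.099 on the log2 scale (SE; edgeR adjusted p = 0.0746).

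Hadha, the hydratase and dehydrogenase subunit of the trifunctional protein, averaged 329 ± 8.32 CPM in TCM peri-tumor liver and 237 ± 12.2 CPM in control peri-tumor liver (SD, n = 4 each) and rose by 0.47 ± 0.0898 on the log2 scale (SE; edgeR adjusted p = 0.00423). It fell in tumors of TCM mice, at -0.35 ± 0.0897 on the log2 scale (SE; edgeR adjusted p = 0.00654). Hadhb, the thiolase subunit, was not called in any comparison. Of its 50-base words 61.5% also occur in Gm13910, which had 29569 counts over the 16 libraries against 4799 for Hadhb, and the FPKM of Hadhb averaged 2.22 against 24.2 for Hadha. The sum of Hadhb and Gm13910 was 159.7, 159.6, 199.7 and 153 CPM in TCM peri-tumor liver and 107.2, 113, 125 and 117 CPM in control peri-tumor liver, and Gm13910 alone was higher in TCM peri-tumor liver by 0.57 ± 0.13 on the log2 scale (SE; edgeR adjusted p = 0.00937). Hadh, the short-chain hydroxyacyl-CoA dehydrogenase, fell in control tumors, at -0.71 ± 0.16 on the log2 scale (SE; edgeR adjusted p = 0.00176). Ech1, an auxiliary isomerase, rose in TCM peri-tumor liver by a log2 fold change of 0.52 and fell in tumors, at -0.69 in TCM mice and -0.41 in control mice. The isomerase Eci1 rose by a log2 fold change of 0.45 and fell in tumors, at -0.86 in TCM mice and -0.52 in control mice.

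Among peroxisomal genes 5 of 6 rose in TCM peri-tumor liver, none was called between TCM and control tumors (3 higher and 0 lower at an unadjusted p under 0.05), and all 6 fell in tumors of TCM mice. In control tumors 2 of 6 fell, 4 were lower at an unadjusted p under 0.05, and with the mouse as a block Ehhadh and Pex11a were also called. The difference between the 2 tumor effects was called for none of the 6 (0 more positive and 3 more negative in TCM mice at an unadjusted p under 0.05), though for Acaa1b with the mouse as a block or without control mouse 4, as given above. Of all genes, 15.6% were called lower in tumors in TCM mice and 21.2% in control mice. With TCM, 6.71% of all genes were called higher in peri-tumor liver and 4.55% in tumors. At an unadjusted p under 0.05 no share of all genes was counted. Acaa1b, a peroxisomal thiolase strongly induced by PPARalpha agonists in rodents, had 433, 279, 322 and 425 CPM in TCM tumors and 956, 712, 659 and 735 CPM in TCM peri-tumor liver. Control tumors held 331, 256, 317 and 195 CPM, and control peri-tumor liver held 311, 315, 313 and 158 CPM. TCM peri-tumor libraries were the highest of the 16 and control peri-tumor 4 the lowest. TCM over control came to a log2 fold change of 1.48 ± 0.23 (SE; edgeR adjusted p = 0.00141) in peri-tumor liver and 0.41 ± 0.23 (SE; edgeR adjusted p = 0.289) in tumors. Acaa1b fell in tumors of TCM mice, at -1.07 ± 0.23 on the log2 scale (SE; edgeR adjusted p = 0.00225), while in control mice the value was 0.0033 ± 0.23 (SE; edgeR adjusted p = 0.993). Its paralog Acaa1a shares 34% of its 50-base words with it and was not called in TCM peri-tumor liver, at 0.39 ± 0.15 on the log2 scale (SE; edgeR adjusted p = 0.0956), although no TCM library overlapped with a control library. In tumors Acaa1a fell, at -0.804 ± 0.15 on the log2 scale (SE; edgeR adjusted p = 0.000904) in TCM mice and -0.49 ± 0.15 (SE; edgeR adjusted p = 0.0176) in control mice.

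Ehhadh, the bifunctional hydratase and dehydrogenase of the inducible peroxisomal pathway, averaged 242 ± 40.1 CPM in TCM peri-tumor liver and 117 ± 36.6 CPM in control peri-tumor liver (SD, n = 4 each) and rose by 1.05 ± 0.24 on the log2 scale (SE; edgeR adjusted p = 0.0107). It fell in tumors of TCM mice, at -0.93 ± 0.24 on the log2 scale (SE; edgeR adjusted p = 0.00683). Hsd17b4, the bifunctional protein of the other peroxisomal pathway, had 267, 218, 246 and 239.6 CPM in TCM tumors and 465, 409, 457 and 423 CPM in TCM peri-tumor liver. Control tumors held 210.5, 194, 227 and 191 CPM, and control peri-tumor liver held 286, 278, 319 and 284 CPM. The groups did not overlap between tumor and peri-tumor liver of either treatment, nor between TCM and control peri-tumor liver. Hsd17b4 fell in tumors, at -0.85 ± 0.097 on the log2 scale (SE; edgeR adjusted p = 1.23e-05) in TCM mice and -0.505 ± 0.097 (SE; edgeR adjusted p = 0.000594) in control mice, and rose in TCM peri-tumor liver by 0.59 ± 0.097 (SE; edgeR adjusted p = 0.00179). The reductase Decr2 rose in TCM peri-tumor liver by a log2 fold change of 0.69 and fell in tumors of TCM mice, at -0.63. Pex11a, a membrane protein of peroxisome division, rose by a log2 fold change of 0.603 and fell at -0.92.

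Of the ketone body genes, Acat1, the mitochondrial acetoacetyl-CoA thiolase, had 232, 281, 284 and 204 CPM in TCM tumors and 339, 346, 379 and 272 CPM in TCM peri-tumor liver. Control tumors held 184, 135, 179.9 and 136 CPM, and control peri-tumor liver held 188, 215, 204 and 157 CPM. All TCM libraries lay above all control libraries within each tissue. TCM minus control amounted to a log2 fold change of 0.81 ± 0.15 (SE; edgeR adjusted p = 0.0042) in peri-tumor liver and 0.66 ± 0.15 (SE; edgeR adjusted p = 0.0197) in tumors, and the second call was lost without TCM tumor 3 or control tumor 2, with adjusted p up to 0.0665. Acat1 fell in tumors of TCM mice, at -0.42 ± 0.15 on the log2 scale (SE; edgeR adjusted p = 0.0459), a call lost without single libraries as given above. Bdh1, which forms 3-hydroxybutyrate, had 283, 325, 302 and 316 CPM in TCM peri-tumor liver and 149, 102.2, 182 and 296 CPM in control peri-tumor liver. Control peri-tumor 4 lay inside the TCM range and the other 3 control libraries below it. The log2 fold change was 0.75 ± 0.25 (SE; edgeR adjusted p = 0.0519), and 1.09 (adjusted p = 0.00194) without control peri-tumor 4. In control mice Bdh1 was higher in tumors, at 0.65 ± 0.24 on the log2 scale (SE; edgeR adjusted p = 0.0429), also a call that single libraries decided.

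The thioesterases, which split acyl-CoA into free fatty acid and CoA, held both falls in TCM peri-tumor liver and none of the rises. Acot3, a peroxisomal thioesterase, had 0.668, 1.24, 0.433 and 0.479 CPM in TCM tumors and 2.25, 1.28, 1.59 and 3.71 CPM in TCM peri-tumor liver. Control tumors held 1.2, 0.97, 0.771 and 0.955 CPM, and control peri-tumor liver held 13.4, 46.6, 4.83 and 1.46 CPM. Control peri-tumor 1 and 2 held the highest values of the 16, and control peri-tumor 4 lay within the range of TCM peri-tumor liver. The log2 fold change of TCM over control peri-tumor liver was -2.901 ± 0.73 (SE; edgeR adjusted p = 0.0175), and -1.57 (adjusted p = 0.0934) without control peri-tumor 2. In control mice tumor over peri-tumor liver was -4.08 ± 0.796 on the log2 scale (SE; edgeR adjusted p = 0.000673), and -2.77 (adjusted p = 0.00166) without that library and -3.28 (adjusted p = 0.00329) with the mouse as a block. The neighbouring Gm49366, which overlaps Acot3 and shares 11.2% of its words, had 0, 0.675, 0 and 0.831 CPM in TCM peri-tumor liver and 5.41, 16.5, 1.15 and 0 CPM in control peri-tumor liver, with its highest values in the same 2 control libraries.

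Acot4, a peroxisomal thioesterase for succinyl-CoA and related esters, had 26.6, 32, 26.8 and 31.4 CPM in TCM tumors and 31.8, 45.5, 31.7 and 48.8 CPM in TCM peri-tumor liver. Control tumors held 44.8, 40.4, 27.6 and 30.4 CPM, and control peri-tumor liver held 125, 175, 67 and 27.6 CPM. Control peri-tumor 1, 2 and 3 were the highest of the 16, while control peri-tumor 4 lay below the TCM peri-tumor libraries. TCM over control peri-tumor liver was -1.32 ± 0.38 on the log2 scale (SE; edgeR adjusted p = 0.0319), and the call was lost without TCM peri-tumor 1, 2 or 3 or control peri-tumor 1 or 2, with adjusted p up to 0.126. In tumors of control mice it fell, at -1.46 ± 0.38 on the log2 scale (SE; edgeR adjusted p = 0.00568).

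Acot1 and Acot2, a cytosolic and a mitochondrial thioesterase of closely related sequence that share words with each other (23.9% of those of Acot1 and 24.5% of those of Acot2), changed in opposite directions in control tumors. Acot1 had 2.47, 2.91, 1.67 and 7.34 CPM in control tumors and 8.15, 8.95, 12.4 and 6.49 CPM in control peri-tumor liver, a log2 fold change of -1.31 ± 0.39 (SE; edgeR adjusted p = 0.0126). Control tumor 4 overlapped with peri-tumor liver, and without it the value was -1.95 on the log2 scale (adjusted p = 0.000329). Acot2 had 5.83, 6.51, 6.17 and 6.63 CPM in control tumors and 2.55, 4.17, 1.97 and 2.02 CPM in control peri-tumor liver without overlap, and rose by 1.22 ± 0.28 on the log2 scale (SE; edgeR adjusted p = 0.00245). Acot1 also fell in tumors of TCM mice, at -2.01 ± 0.396 on the log2 scale (SE; edgeR adjusted p = 0.00113), where Acot2 was not called, at 0.41 ± 0.28 (SE; edgeR adjusted p = 0.286). Acot8, a peroxisomal thioesterase of broad range, fell in tumors, at -0.32 ± 0.11 on the log2 scale (SE; edgeR adjusted p = 0.0295) in TCM mice and -0.44 ± 0.11 (SE; edgeR adjusted p = 0.00376) in control mice.

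Other genes of the same pathways were taken from 2 lists, which were chosen with earlier results of these data known. The counts here are of calls by edgeR as above. Of all genes tested, 6.71% were called higher and 7.35% lower in TCM than in control peri-tumor liver. Between TCM and control tumors these shares were 4.55% higher and 2.72% lower. For tumor over peri-tumor liver they were 17.3% higher and 15.6% lower in TCM mice, and 22% higher and 21.2% lower in control mice. No such share was counted at an unadjusted p under 0.05. Of 43 further oxidation and ketone genes 41 were tested, and 14 were higher and 2 lower in TCM than in control peri-tumor liver, with a median log2 fold change of 0.185. Among the rises with the smallest p were the peroxisomal transporter Abcd3 at 1.11 on the log2 scale (adjusted p = 0.000794), the bile acid and branched-chain oxidase Acox2 at 0.74 (adjusted p = 0.00182) and the medium-chain synthetase Acsm3 at 0.66 (adjusted p = 0.00355), all by edgeR. The falls were Acot11 at -0.998 on the log2 scale (adjusted p = 0.0141) and Oxct1, which uses ketone bodies outside hepatocytes, at -0.77 (adjusted p = 0.0293). In tumors 7 were higher with TCM and none lower (17 and 1 at an unadjusted p under 0.05), led by Ivd at 0.799 on the log2 scale (adjusted p = 0.00168) and Amacr at 0.72 (adjusted p = 0.00368). In tumor over peri-tumor liver 6 were higher and 24 lower in TCM mice, and 7 higher and 23 lower in control mice. Among the rises in both were Abcd2, at 3.67 on the log2 scale (adjusted p = 1.71e-05) in TCM mice and 3.84 (adjusted p = 5.86e-06) in control mice, and Acsl4, at 1.23 (adjusted p = 5.92e-05) in TCM mice and 1.96 (adjusted p = 5.11e-07) in control mice. Acsm1 fell in both, at -1.67 on the log2 scale (adjusted p = 3.09e-06) in TCM mice and -2.09 (adjusted p = 1.9e-07) in control mice.

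Of 39 other PPARalpha targets and partners 36 were tested, and 10 were higher and 1 lower in TCM than in control peri-tumor liver, with a median log2 fold change of 0.57. The rises with the smallest p were the retinol saturase Retsat at 1.34 on the log2 scale (adjusted p = 0.00153), the lipid droplet protein Plin2 at 1.52 (adjusted p = 0.00158), Aldh3a2 at 0.73 (adjusted p = 0.00686) and Pparg at 0.92 (adjusted p = 0.00959), and the fall was Ucp2 at -1.15 (adjusted p = 0.0113), by edgeR. In tumors 3 were higher with TCM and none lower (8 and 2 at an unadjusted p under 0.05), namely the mitochondrial deacetylase Sirt3 at 0.79 on the log2 scale (adjusted p = 0.00454), the epoxide hydrolase Ephx2 at 0.89 (adjusted p = 0.0137) and Retsat at 0.96 (adjusted p = 0.0169). In tumor over peri-tumor liver 4 were higher and 15 lower in TCM mice, and 7 higher and 14 lower in control mice. The shares of all genes given with the first list stand beside these counts of calls too. Sirt3 fell in both, at -1.25 on the log2 scale (adjusted p = 6.34e-06) in TCM mice and -1.99 (adjusted p = 6.04e-08) in control mice, and Cidec rose in both, at 3.32 (adjusted p = 0.000195) in TCM mice and 4.08 (adjusted p = 2.77e-05) in control mice. The interaction was called for Pparg, at -1.33 on the log2 scale (adjusted p = 0.0367).

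Markers of other cells moved with some of these comparisons. Of all genes tested, 14.1% were called between TCM and control peri-tumor liver and 7.28% between TCM and control tumors. Between tumor and peri-tumor liver 17.3% were called higher and 15.6% lower in TCM mice, and 22% higher and 21.2% lower in control mice. Between TCM and control peri-tumor liver none of 9 hepatocyte markers tested was called by edgeR (1 higher and 2 lower at an unadjusted p under 0.05), and they summed to 102289.99 to 150695 CPM in TCM peri-tumor liver and 78804 to 113293 CPM in control peri-tumor liver. Of 8 markers of Kupffer cells, the resident macrophages of liver, 6 were lower in TCM peri-tumor liver and none higher, with sums of 251 to 324 CPM in TCM peri-tumor liver and 502 to 1124 CPM in control peri-tumor liver. Each of the 8 was detected in all 8 peri-tumor libraries. In tumors against peri-tumor liver 7 of 8 recruited macrophage markers were higher in TCM mice and all 8 in control mice, with sums of 462 to 1331 CPM in TCM tumors and 44.7 to 78.6 CPM in TCM peri-tumor liver, and of 1002 to 2401 CPM in control tumors and 47 to 97.2 CPM in control peri-tumor liver. Kupffer cell markers were lower in tumors for 5 of 8 in TCM mice and for all 8 in control mice, and none was higher, with sums of 38.5 to 200.2 CPM in TCM tumors and 125 to 191 CPM in control tumors. Stellate cell and fibroblast markers were higher for 5 and lower for 2 of 8 in TCM tumors, and higher for 5 and lower for 1 in control tumors. Proliferation markers were higher for all 6 in TCM tumors and for 5 of 6 in control tumors, and endothelial markers for 4 of 8 in TCM tumors and 3 of 8 in control tumors, with 1 lower in TCM tumors and 2 in control tumors. Of 4 cholangiocyte markers tested, 1 was higher in tumors of either treatment and 1 lower in control tumors. Hepatocyte markers were higher for 1 and lower for 5 of 9 in TCM tumors, and higher for 2 and lower for 4 in control tumors. Between TCM and control tumors 3 recruited macrophage markers were lower, 4 of 6 proliferation markers were higher with TCM, with sums of 73.3 to 135 CPM in TCM tumors and 41.4 to 56 CPM in control tumors, and 2 hepatocyte markers were higher. Of 3 neutrophil markers tested, 1 was higher in control tumors than in control peri-tumor liver, and 1 was lower in TCM than in control tumors. Summed neutrophil markers reached 113 CPM in control tumor 4, against 5.46 to 9.63 CPM in the other control tumors. Spp1 stands in both the tumor and the recruited macrophage list. The part of these cells in the values of the 41 genes was not tested.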

How the data were processed

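RNA-seq libraries of 8 tumors and 8 peri-tumor livers were made with a stranded mRNA kit, per the labels' protocols. The authors deposited raw read counts per Ensembl gene and, for each sample, FPKM values. Both mm9 and mm10 are listed as builds in the submitters' processing notes, and for the aligner, the counter and the strand setting nothing is stated in the sources at hand. In 11980 genes checked the FPKM imply a gene length constant to within 0.0058%. Symbols were matched for 54723 of 54838 IDs.

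Genes were kept with edgeR's filterByExpr (count minimum 10) and tested in 1 fit of all 16 libraries (1 mean per group, TMM, quasi-likelihood F test, edgeR 4.0.16 in R 4.3.3), with p-values adjusted by Benjamini-Hochberg over 14865 genes and called under 0.05. Fold changes are TCM over control and tumor over peri-tumor liver, and SE is the log2 fold change divided by the root of F. Fits were tested on simulated data. Alternatives were DESeq2 1.42.0, RLE factors, other filters, only the groups compared, a replicate block and libraries left out. Libraries of a group differed by more than sampling noise (lowest chi-square per degree of freedom 16.9). The labels' animal codes pair the tissues, and deviations of paired libraries correlated at 0.043 to 0.235. Genes named by library are Ppara and up to 5 rises and 5 falls per comparison with the smallest p, averaging 1 CPM or more in the higher group, with paralogs and members of the same role beside them. Members and lists were chosen with earlier results of these data known. Two-sided tests were used throughout.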

Additional observations from a re-analysis of the deposited data

Results flagged for a closer look

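In 164 sets of 4 libraries (41 genes in 4 groups), 4 had a library whose gap to its nearest neighbour passed the 95% limit of Dixon's test, and about 1 in 20 groups passes it by chance. Control tumor 4 held 208.6 CPM of Crot, against at most 117.9 CPM in the other 3 control tumors. TCM tumor 2 held 170.2 CPM of Acadvl, against 209.9 to 210.7 CPM in the other 3 TCM tumors. Control peri-tumor 4 held 93.2 CPM of Acaa1a, against 148 to 159.1 CPM in the other 3 control peri-tumor libraries. The same library held 157.5 CPM of Acaa1b, against 311.4 to 314.6 CPM in the other 3.

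The interaction test of the tumor effect passed the threshold for Vnn1 at -1.637 and for Acadl at -0.6548 on the log2 scale, as the value in TCM mice minus that in control mice. For both genes the 4 control peri-tumor libraries were the lowest of the 16. Neither call was kept with the mouse as a block (adjusted p = 0.0836 for Vnn1 and 0.0629 for Acadl), and leaving out 1 library ended that of Vnn1 in 12 of 16 cases and that of Acadl in 10 of 16.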

How the results depend on the processing

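No fold change of a called gene among the 41 changed sign under any alternative. In peri-tumor liver 22 to 28 of the 41 were higher with TCM under all other settings that kept 16 libraries or left out a mouse, and 19 to 27 when 1 library was left out. The 2 falls there became 0 with only the groups compared and 1 (Acot4) with the replicate number as a block, and ranged from 0 to 2 without 1 library. Over all genes this comparison gave 1101 to 3228 calls without 1 library and 3434 without control mouse 4. Between TCM and control tumors, 1805 genes were called by DESeq2, 687 with no filter on low counts and 1877 without control mouse 4, and 404 to 1524 without 1 library; of the 41, 11 were higher by DESeq2 and 1 to 7 without 1 library. For the interaction, 806 genes were called by DESeq2, 79 with no filter, 107 with the mouse as a block and 714 without control mouse 4, with 58 to 665 without 1 library. Of the 41 genes, a more negative value in TCM mice was called for 5 by DESeq2, 0 with no filter, 2 with the mouse as a block, 4 without control mouse 4 and 0 to 2 without 1 library, and a more positive one for 0 to 1. In TCM mice 1 to 3 of the 41 were higher in tumors without 1 library; the other counts of the 41 in the 2 tissue comparisons stayed within 1.5 times, with 23 to 27 lower in TCM mice and 14 to 20 in control mice without 1 library. With libraries of other groups left out, the tissue calls of Acat1 and Crat in TCM mice and of Creb3l3 and Bdh1 in control mice were also lost (adjusted p 0.0502 to 0.0562). For the tissue comparisons and the interaction the replicate block is the 8 mice; for TCM against control it is the replicate number, which there names different animals, and the block changed the calls of Fabp1, Acot3, Crot and Ehhadh. The cause of these differences was not tested. With 4 libraries a group and 12 residual degrees of freedom, a value that missed the threshold does not show that the groups were alike.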
